A study of Mus musculus with 8 samples.

Results

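The Frizzled receptors of the mouse, *Fzd1* to *Fzd10*, were taken from the count table by gene symbol alone. All 10 were found among the 28432 genes of the table, and all 10 were among the 13891 genes with enough reads to be tested. RNA was sequenced from retinas of 8 embryos at E15.5, each sample being both retinas of 1 embryo, after tamoxifen (0.15 to 0.2 mg per g of the dam's weight) was fed to the dams at E11.5. The 4 Control embryos were *Lhx2* flox/+ and the 4 CKO embryos were *Lhx2* flox/KO. Every embryo of both genotypes carried 1 copy of *Hes1* CreERT2, a tamoxifen-activated recombinase knocked into the *Hes1* locus, and so had 1 disrupted *Hes1* allele. By the study's account all embryos also carried 1 copy of *Rosa26* ai14, a tdTomato reporter by which recombined embryos were picked. *Hes1* is made by retinal progenitors, so recombination in those cells is passed to the neurons they make. CKO cells in which the recombinase did not act keep the floxed allele next to the KO allele. Which cells outside the progenitor lineage recombined is not shown by these data. The embryos came from several litters, and the sources used here do not say which sample came from which litter.

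Frizzled proteins are receptors with 7 membrane-spanning helices and a cysteine-rich domain outside the cell that binds Wnt ligands. With the co-receptors Lrp5 and Lrp6 they recruit Dishevelled and stabilise β-catenin, and with Vangl and Celsr proteins they act in planar cell polarity, which orients cells and axons within a tissue. In the eye, *Fzd5* is a receptor of the eye field and of retinal progenitors, and *Fzd4* is the receptor for Norrin in the growth of retinal vessels. By sequence the family falls into the groups *Fzd1*/*Fzd2*/*Fzd7*, *Fzd5*/*Fzd8*, *Fzd3*/*Fzd6* and *Fzd4*/*Fzd9*/*Fzd10*.

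Total counts per library ran from 13143587 to 15063867 in Control and from 13955259 to 19099937 in CKO samples. On the first principal component (49.4% of variance) Control and CKO samples lay apart, while CKO replicate 1 (28.5) and Control replicate 3 (-22.5) lay at the ends of the second (17.6%). *Lhx2* itself had normalized counts of 3477.8, 3081.5, 3630.5 and 3138.1 in the Control samples, in the order of their replicate numbers, and of 2557.2, 2764.6, 2853.0 and 2868.4 in the CKO samples (log2FC -0.27, adjusted p = 0.005, edgeR, not called). A count over the whole gene also takes in reads from the exons that the recombined allele keeps, so it is no check of the deletion. A normalized count is a read count divided by the library's size factor. log2FC is the log2 ratio of CKO over Control, and a gene was called at a Benjamini-Hochberg adjusted p below 0.001 in edgeR's quasi-likelihood test over all genes tested.

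Of the 10 Frizzled genes, 2 were called lower in the CKO, *Fzd5* and *Fzd10*, and 0 were called higher by edgeR. DESeq2 made the same counts of calls, and at an unadjusted p below 0.05 in edgeR 2 were higher, *Fzd3* and *Fzd7*, and 3 lower. *Fzd6*, among those lower, ranked 5651 among the 13891 genes tested, so at least 5651 genes passed that unadjusted cutoff in either direction. Counts of list genes at the unadjusted cutoff, given further below, stand beside the same large background. Of all genes tested, 8.61% were called in either direction, 4.97% were called lower and 3.64% higher. *Fzd5* was the most abundant of the family in Control retinas and was 2.59-fold lower in the CKO. *Fzd10*, with 10 to 52 reads per sample, was 2.99-fold lower. The genotypes did not overlap in normalized counts for 3 of the 10 genes, *Fzd3*, *Fzd5* and *Fzd10*, and for 33.8% of all genes tested, so the share of members without overlap was near the background.

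**Figure D1:**
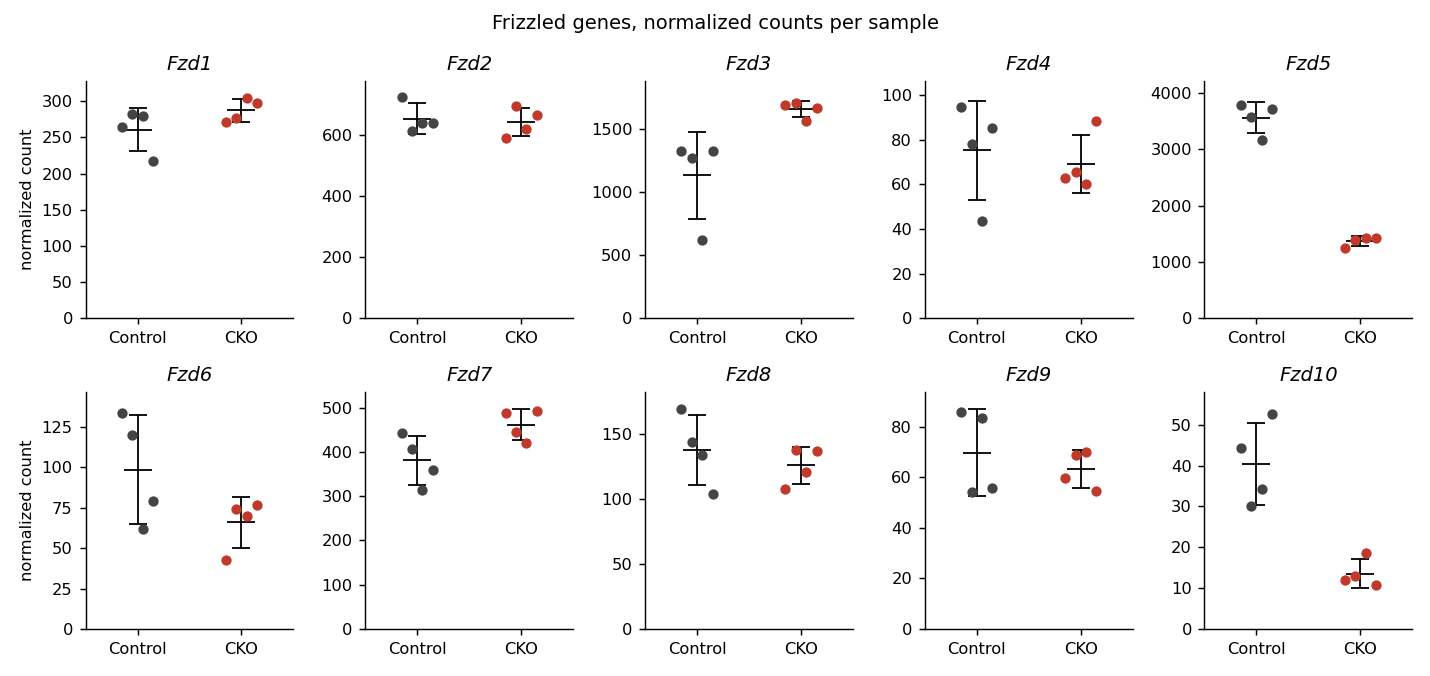
Normalized count of each Frizzled gene (y axis, from 0, with its own scale per gene) in the 4 Control samples (grey) and the 4 CKO samples (red); points are samples, and bars are the mean and SD. *Fzd5* and *Fzd10* lie lower in every CKO sample than in any Control sample, *Fzd3* lies higher, and the other 7 genes overlap.

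*Fzd5* (ENSMUSG00000045005) lies at chr1:64730558-64737751 on the minus strand of GRCm38 and has 2 exons in GENCODE M21. Its partner in sequence, *Fzd8*, has 1 exon, as do *Fzd1*, *Fzd2*, *Fzd7*, *Fzd9* and *Fzd10*. RefSeq promoter sequences (GRCm38.p6) were matched for 6 of the 10 genes, *Fzd1*, *Fzd4*, *Fzd5*, *Fzd7*, *Fzd9* and *Fzd10*. In the 250 bases upstream of each RefSeq start, letters of the TAAT core that LIM-homeodomain factors such as Lhx2 can bind were searched on both strands, where the reverse strand reads ATTA. *Fzd5* and *Fzd1* each held 2 such cores and the other 4 held 0, while 54.9% of 32851 promoters of the same length held at least 1. By GENCODE M21 the *Fzd10* window lies wholly within the exon of the gene, and most of the *Fzd9* window does too. The longer TAATTA, which contains a TAAT on each strand, was in 0 of the 6 and in 4.84% of all promoters. CTTTGA, letters of the Tcf/Lef core, was on 1 strand of the *Fzd1* window and in 0 of the other 5, against 13.8% of all promoters. These are matches of letters and not sites shown to be bound. The windows of *Fzd5* and *Fzd1* are shown because they hold the same number of cores while *Fzd5* was called lower and *Fzd1* was not called; both genes are on the minus strand, and capitals mark the TAAT cores, read here as ATTA.
Fzd5, chr1:64737751-64738000: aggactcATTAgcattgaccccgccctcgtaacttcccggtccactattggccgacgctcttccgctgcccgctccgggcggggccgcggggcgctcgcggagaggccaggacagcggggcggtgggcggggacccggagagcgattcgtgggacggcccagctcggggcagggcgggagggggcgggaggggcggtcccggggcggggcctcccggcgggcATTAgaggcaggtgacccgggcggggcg
Fzd1, chr5:4758217-4758466: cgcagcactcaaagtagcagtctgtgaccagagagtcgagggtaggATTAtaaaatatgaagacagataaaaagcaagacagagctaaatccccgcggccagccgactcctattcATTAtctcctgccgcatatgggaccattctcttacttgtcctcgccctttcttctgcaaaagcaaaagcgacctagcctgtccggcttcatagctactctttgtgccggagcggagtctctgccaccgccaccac

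*Fzd5* had 3794.9, 3569.9, 3168.2 and 3722.4 normalized counts in Control replicates 1 to 4. In the CKO replicates, in the same order, it had 1248.0, 1394.8, 1432.0 and 1422.5. The highest CKO sample had well under the count of the lowest Control sample, and the samples of each genotype lay close together. The mean fell from 3563.8 ± 280 to 1374.3 ± 85.7 (SD, n = 4 each), a log2FC of -1.37 ± 0.0665 (SE) with a 95% interval of -1.52 to -1.23 (adjusted p = 1.7e-07, edgeR). By p-value *Fzd5* ranked 18 among all genes tested, and 139 genes had a log2FC as low or lower. The exons of *Fzd5* overlap those of *Gm38058*, a gene on the opposite strand, over 1233 bases (17.8% of its exon length), and the libraries do not keep strand. *Gm38058* itself was assigned 3 to 14 reads per sample.

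The other member of its group, *Fzd8* (ENSMUSG00000036904; chr18:9212163-9218136), which acts with *Fzd5* in the early eye, was low and was not called. Its normalized counts were 104 to 169 in Control and 108 to 138 in CKO samples, and the groups overlapped. The mean was 138 ± 26.8 in Control and 126 ± 14.1 in CKO retinas (log2FC -0.13, interval -0.45 to 0.19, adjusted p = 0.53, edgeR). The interval of *Fzd8* does not reach that of *Fzd5*.

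*Fzd10* (ENSMUSG00000081683; chr5:128600844-128604093, plus strand), a receptor of the β-catenin arm known from the dorsal neural tube, was the other member called lower. It had 44, 29, 30 and 52 reads in Control replicates 1 to 4 and 15, 15, 17 and 10 reads in the CKO replicates. As normalized counts these were 44.3, 30.2, 34.3 and 52.7 in Control and 11.9, 12.9, 18.6 and 10.7 in CKO samples. The highest CKO sample lay below the lowest Control sample, but with so few reads the interval was wide. The mean fell from 40.4 ± 10.1 to 13.5 ± 3.5 (SD, n = 4 each), a log2FC of -1.58 ± 0.258 (SE), interval -2.15 to -1.02 (adjusted p = 0.00081, edgeR). *Fzd10* reached the minimum of 20 normalized counts in 4 of 4 Control and 0 of 4 CKO samples, so it entered the test through the Control samples alone. Its call was lost when any 1 of the 8 libraries was left out (adjusted p from 0.0011 to 0.0036, edgeR), and its log2FC then ran from -1.75 to -1.42.

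**Figure D2:**
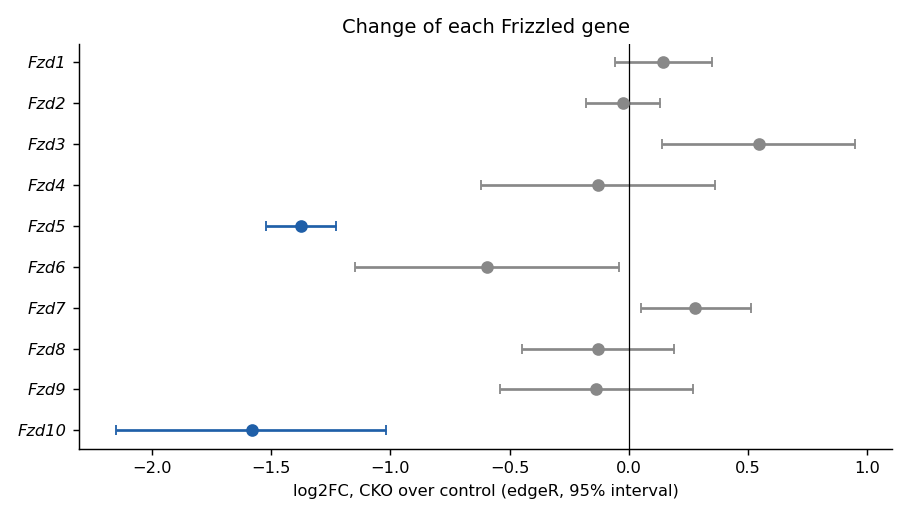
log2FC of each Frizzled gene (x axis, CKO over Control, edgeR) with its 95% interval; blue marks the 2 genes called lower and grey the 8 not called. *Fzd5* lies at -1.37 with a narrow interval and *Fzd10* at -1.58 with a wide one, and the other 8 lie between -0.59 and 0.54.

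*Fzd3* (ENSMUSG00000007989; chr14:65192449-65262463, minus strand) has 7 exons and acts with the Celsr proteins in the guidance of growing axons. It had 1327.1, 1270.5, 620 and 1331.6 normalized counts in Control replicates 1 to 4. The CKO replicates, in the same order, had 1691.3, 1712.7, 1570.9 and 1667.9. All CKO samples were above all Control samples, and Control replicate 3 stood far below the other Control samples. The mean was 1137.3 ± 346 in Control and 1660.7 ± 62.6 in CKO retinas (log2FC 0.54 ± 0.185, interval 0.14 to 0.95), which was not called (adjusted p = 0.041, edgeR). Without Control replicate 3 the log2FC was smaller, 0.35, and the gene was called (adjusted p = 0.00026, edgeR).

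Control replicate 3 also differed from the other Control samples by gene length. In that library the 2614 tested genes with at least 8 kb of exon had a median log2 difference of -0.170 from the other Control samples, and the 1749 genes under 2 kb had 0.177. In the other 7 libraries, each set against the rest of its genotype, the median of the long genes lay between -0.013 and 0.084. *Fzd3*, with 12804 bases of exon, was at -1.08 there, *Fzd4* at -0.97 and *Fzd6* at -0.80, each lower than the median of the long genes. *Fzd5*, longer than *Fzd4* and *Fzd6*, was at -0.22 and *Fzd8* at -0.03 in the same library. Markers of other cells stood apart there too. Of the ciliary margin markers, *Wfdc1* was at 36.5 normalized counts (199 to 217 in the other Control samples), *Otx1* at 46.8 (141 to 297), *Msx1* at 12.6 (59.7 to 154) and *Bmp4* at 2.28 (34.4 to 55.4). The blood list summed to 376.8, against 1384.3 to 2398.4. The part of exon length, RNA quality or adjoining tissue in the values of *Fzd3*, *Fzd4* and *Fzd6* was not tested.

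*Fzd6* (ENSMUSG00000022297; chr15:39006034-39038188, plus strand), the partner of *Fzd3* in sequence and a planar polarity receptor of skin and hair, was among the low members. Its normalized counts were 134, 120, 61.7 and 79.0 in Control and 42.9, 74.1, 70 and 76.8 in CKO replicates 1 to 4. Control replicates 1, 2 and 4 lay above every CKO sample, replicate 4 only just, and Control replicate 3 lay among them. The mean was 98.6 ± 33.9 in Control and 66.0 ± 15.6 in CKO retinas (log2FC -0.59, interval -1.15 to -0.04, adjusted p = 0.094, edgeR, not called). Its exons overlap *Gm26704*, on the opposite strand, over 152 bases (3.15%), a gene assigned 2 to 5 reads per sample.

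*Fzd7* (ENSMUSG00000041075; chr1:59482424-59486955), a β-catenin receptor used by many stem and progenitor cells, had normalized counts of 442, 408, 315 and 359 in Control and 489, 445, 421 and 493 in CKO replicates 1 to 4. Only the highest Control sample reached into the CKO range. The mean was 381 ± 55.6 in Control and 462 ± 34.7 in CKO retinas (log2FC 0.28, interval 0.05 to 0.51, adjusted p = 0.063, edgeR, not called). The other members of its group, both receptors that can stabilise β-catenin, lay in overlapping ranges. *Fzd1* (ENSMUSG00000044674; chr5:4753839-4758035) had 218 to 282 normalized counts in Control and 271 to 305 in CKO samples (log2FC 0.14, interval -0.06 to 0.35, adjusted p = 0.27, edgeR). *Fzd2* (ENSMUSG00000050288; chr11:102604396-102608058) had 613 to 725 in Control and 589 to 694 in CKO samples (log2FC -0.02, interval -0.18 to 0.13, adjusted p = 0.82, edgeR). Its interval, the narrowest of the members not called, runs from 0.883-fold to 1.1-fold.

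*Fzd4* (ENSMUSG00000049791; chr7:89404355-89413134), the Norrin receptor, and *Fzd9* (ENSMUSG00000049551; chr5:135248938-135251230), a receptor deleted in Williams syndrome in humans, were both below 100 normalized counts in every sample. *Fzd4* ranged from 43.4 to 94.6 in Control and from 60.2 to 88.6 in CKO samples (log2FC -0.13, interval -0.62 to 0.36, adjusted p = 0.69, edgeR). *Fzd9* ranged from 54.2 to 85.6 in Control and from 54.4 to 70 in CKO samples (log2FC -0.14, interval -0.54 to 0.27, adjusted p = 0.61, edgeR). The intervals run from 0.652-fold to 1.28-fold for *Fzd4*, whose Control replicate 3 lay lowest, and from 0.689-fold to 1.2-fold for *Fzd9*. A change of any size within them remains possible.

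To compare members with each other, counts were divided by exon length and library total, which gives RPKM (reads per kb of exon, scaled to a fixed number of counted reads). On this scale *Fzd5* stood at 34.1 ± 2.5 in Control retinas and held 50.3% of the summed level of the 10 genes. In CKO retinas it stood at 12.9 ± 0.731 and held 26.5%. The sum over the family was 67.9 ± 5.91 in Control and 48.9 ± 1.42 in CKO samples, with the lowest Control sample at 60.3 and the highest CKO sample at 50.1. Without *Fzd5* the sum of the other 9 was 33.8 ± 3.66 in Control and 35.9 ± 0.947 in CKO samples, and these ranges overlapped. The median gene tested stood at 7.06 in Control and 6.81 in CKO retinas.

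In Control retinas *Fzd5* was followed by *Fzd2* (11.8), *Fzd3* (5.87), *Fzd7* (5.57), *Fzd1* (4.11), *Fzd9* (2.01), *Fzd8* (1.53), *Fzd6* (1.35), *Fzd10* (0.821) and *Fzd4* (0.741) in level per length. The ranges of *Fzd3* and *Fzd7* overlapped there, and so did each pair of neighbours from *Fzd9* down to *Fzd4*. In CKO retinas the order was *Fzd5* (12.9), *Fzd2* (11.4), *Fzd3* (8.44), *Fzd7* (6.64), *Fzd1* (4.46), *Fzd9* (1.79), *Fzd8* (1.37), *Fzd6* (0.89), *Fzd4* (0.67) and *Fzd10* (0.271). There *Fzd5* and *Fzd2* overlapped in range, although *Fzd5* was the higher in 4 of 4 samples, and *Fzd6* and *Fzd4* overlapped. The share of *Fzd3* in the summed level was 8.54% in Control and 17.3% in CKO retinas, and that of *Fzd2* was 17.4% and 23.3%. A share moves when any other member moves, so these shares are not separate changes of *Fzd2* or *Fzd3*.

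**Figure D3:**
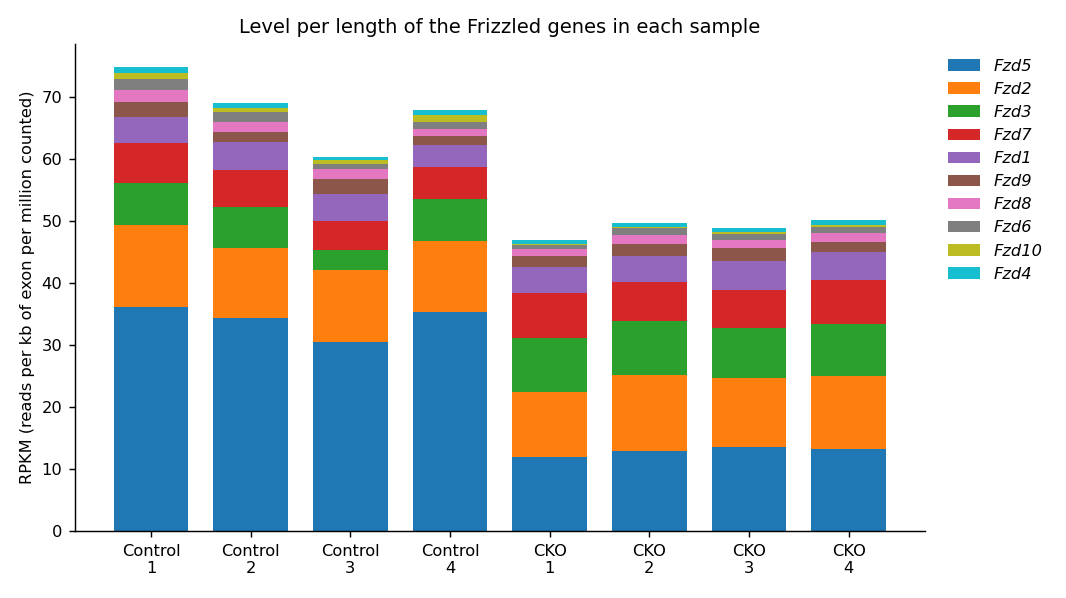
Level per length of the 10 Frizzled genes stacked in each of the 8 samples (y axis, RPKM). The *Fzd5* block at the base is about as high as all the others together in Control samples and is lower in every CKO sample, while the stack above it overlaps between genotypes.

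Whether receptors of 1 sequence group changed by different amounts was tested with the log2 ratio of their normalized counts within each sample, which does not depend on the scaling between libraries. There were 8 such pairs, and an exact permutation test of 4 against 4 samples, two-sided, cannot give a p below 0.0286. For *Fzd5* over *Fzd8* the log2 ratio was 4.48, 4.63, 4.56 and 5.15 in Control and 3.52, 3.33, 3.55 and 3.38 in CKO replicates 1 to 4. For *Fzd3* over *Fzd6* it was 3.30, 3.40, 3.32 and 4.07 in Control and 5.28, 4.52, 4.48 and 4.43 in CKO samples. Both pairs separated the genotypes, in opposite directions. The mean of *Fzd5* over *Fzd8* was lower by a log2 difference of -1.26 and that of *Fzd3* over *Fzd6* was higher by 1.16. *Fzd4* over *Fzd10* (difference 1.46) and *Fzd9* over *Fzd10* (1.43) also did not overlap. Both of these rest on *Fzd10*, which entered through the Control samples alone, where it was the higher. All 4 pairs had the smallest p the exact test allows, 0.0286, or 0.0571 after adjustment over the 8 pairs, so none passed at 0.05 after adjustment. For the other 4 pairs the genotypes overlapped, with differences of -0.31 for *Fzd2* over *Fzd7* (exact p = 0.0571, adjusted 0.0914), 0.17 for *Fzd1* over *Fzd2* (0.2000, adjusted 0.2667), -0.14 for *Fzd1* over *Fzd7* (0.4857, adjusted 0.5551) and 0.04 for *Fzd4* over *Fzd9* (0.9143).

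**Figure D4:**
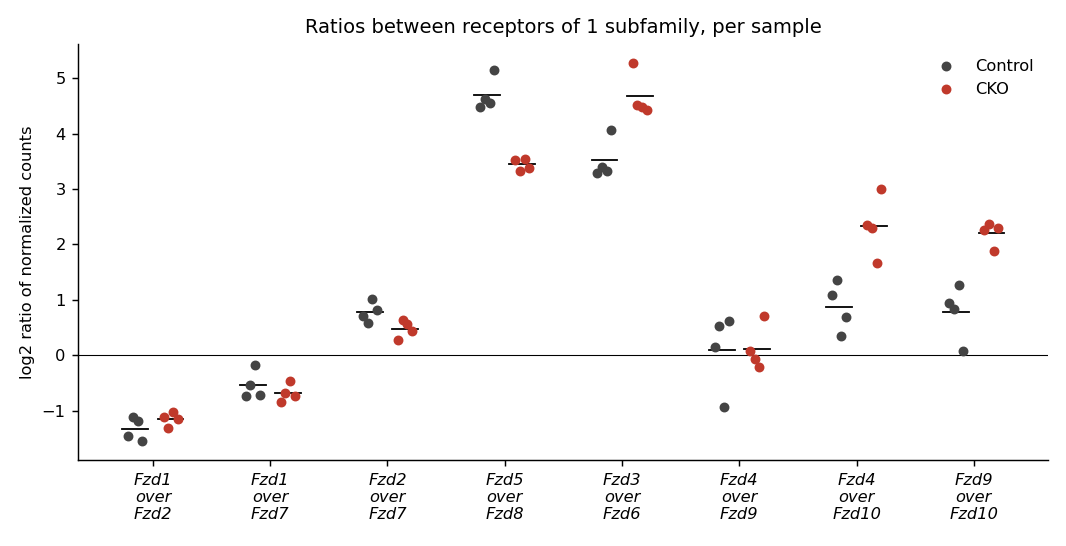
log2 ratio of normalized counts (y axis) for the 8 pairs of Frizzled genes within sequence groups in each Control (grey) and CKO (red) sample; lines are group means. The ratio of *Fzd5* to *Fzd8* is lower in every CKO sample, the ratios of *Fzd3* to *Fzd6* and of *Fzd4* and *Fzd9* to *Fzd10* are higher, and the other 4 pairs overlap.

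The genes whose pattern over the 8 samples was nearest to that of *Fzd5*, by the root mean square difference of centred log2 values among 12152 genes, were *Pdzrn3* (0.0834), *Nudt4* (0.0853) and *Ano1* (0.099). *Pdzrn3*, a ubiquitin ligase, fell from 1243.9 ± 28.4 to 495 ± 40 normalized counts. *Ano1*, a chloride channel opened by calcium, fell from 2563.4 ± 81.4 to 1021.9 ± 146. Nearest to *Fzd10* were *Hes1* (0.225), *Pip5k1b* (0.24) and *Fam69c* (0.259), at wider distances than for *Fzd5*. *Hes1*, a Notch effector of progenitors whose locus carried CreERT2 in both genotypes, fell from 1033.6 ± 86.7 to 358 ± 37.7 normalized counts.

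Markers of cell types were read beside these changes. Of 10 retinal progenitor markers, 7 were called lower and 1, *Sfrp2*, higher, with a median log2FC of -0.98. *Pax6* and *Six3* were not called (log2FC 0.13 and 0.01), and every marker of the list had reads in every sample. Of 10 retinal ganglion cell markers 7 were called, all of them higher, with a median log2FC of 0.50. Their summed normalized counts were 92569 to 103817 in Control and 52015 to 60580 in CKO samples for the progenitor list, and 49834 to 57079 and 69298 to 74710 for the ganglion cell list. In bulk retina, fewer cells of a type and less RNA per cell cannot be told apart, and the part of cell composition in the lower *Fzd5* and *Fzd10* and in the values of *Fzd3* was not tested.

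Some markers of tissue next to the neural retina also differed between the genotypes at low levels. The pigment epithelium list summed to 252 to 404 normalized counts in Control and 115 to 467 in CKO samples, of which *Ttr* made 380 in CKO replicate 4. Without *Ttr*, left out after its values were seen, the sums were 242 to 395 in Control and 87.5 to 124 in CKO samples, and the genotypes did not overlap. The 4 tested markers were all lower at an unadjusted p below 0.05, with *Pmel*, a melanosome protein, called lower (146 against 43.6) and *Rpe65* near 0 (0.512 against 0.414). Of the 7 ciliary margin markers tested 1 was called lower, *Msx1* (87 against 2.31), and 1 higher, *Cdo1*, with a median log2FC of -1.53 and 4 of the 7 lower at an unadjusted p below 0.05. Its summed counts, 1025 to 2698 in Control and 2212 to 3064 in CKO samples, were carried by *Ccnd2* (978 against 1746.0) and *Cdo1* (398 against 839). Of the 4 optic stalk and astrocyte markers tested 1 was called lower, *Pax2* (65.7 against 19.7), with list sums of 815 to 1140 and 727 to 868. *Fzd10*, *Pmel*, *Msx1* and *Pax2* were all called lower in the CKO, as were 4.97% of all genes tested. The part of these tissues in the value of *Fzd10* was not tested. For *Fzd4*, the endothelial list held 7 tested markers with 2 called, both lower: *Kdr*, which retinal progenitors also make, and *Cldn5*, while *Cdh5* (62 against 67.7) and *Pecam1* (53.1 against 55.9) were not called. Of the amacrine and horizontal cell list 1 marker was called higher and of the periocular mesenchyme list 1 was called lower. The lens, photoreceptor, blood and macrophage lists had 0 markers called by edgeR. At an unadjusted p below 0.05 the photoreceptor list had 1 higher and 1 lower, the lens list 1 higher, which DESeq2 called, and the blood and macrophage lists 0.

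Ligands and partners of the receptors were counted from lists of pathway genes. DESeq2 called 2390 of the 13891 genes tested and edgeR 1196, so the DESeq2 counts below stand beside a larger background. Of 20 listed ligands, Wnts and Norrin (*Ndp*), 7 were tested, and *Wnt7b*, which signals through β-catenin in brain and vessels, was the 1 called, and it was higher (DESeq2 called 2, both higher). *Wnt7b* had normalized counts of 159, 126, 275 and 137 in Control and 1378.3, 1353.4, 1249.3 and 1528.1 in CKO replicates 1 to 4 (log2FC 3.00 ± 0.185, adjusted p = 9.4e-07, edgeR). Every CKO sample was several times above every Control sample. *Wnt5a*, a ligand of the polarity arm, stood at 134 in Control and 99.4 in CKO retinas (adjusted p = 0.14, edgeR, not called). The median log2FC of the tested ligands was 0.30, beside 0.005 over all genes tested.

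Of 9 co-receptors and receptor partners 3 were called, all lower (median log2FC -0.37), and DESeq2 called 5, all lower. *Lrp5*, the co-receptor that *Fzd4* and others need for β-catenin signalling, fell from 2389.1 ± 95.2 to 1841.2 ± 52.8 normalized counts (log2FC -0.37, adjusted p = 0.00011, edgeR). *Adgra2*, also called Gpr124, which presents Wnt7 ligands to Frizzled in brain endothelium, fell from 198 ± 34.7 to 87.8 ± 13.6. *Ror1*, a receptor kinase for Wnt5a, fell from 217 ± 34.4 to 110 ± 12.3, and its call was kept in 4 of the 8 fits that left out 1 library (lost without Control replicates 1, 2 or 4 or CKO replicate 4). *Smo*, the Hedgehog receptor component of the same protein class as the Frizzleds, stood at 3026.4 in Control and 2365.7 in CKO retinas. Its log2FC was -0.35 (adjusted p = 0.0018, edgeR, not called). DESeq2 called *Smo* lower, and the study, which used DESeq2, also reported it as reduced.

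Of the 4 tested genes that control Frizzled turnover, by the ubiquitin ligases Rnf43 and Znrf3 and the R-spondins and Lgr receptors that restrain them, 1 was called higher. This was *Lgr5*, which rose from 149 ± 26 to 309 ± 33.3 normalized counts (log2FC 1.05, adjusted p = 0.00013, edgeR). *Lgr4* stood at 2119.4 and 1779.2 (adjusted p = 0.011, edgeR) and was not called.

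Among 9 tested genes of the list of secreted antagonists, which also holds membrane proteins such as *Apcdd1*, 3 were called higher and 2 lower. *Apcdd1*, a membrane inhibitor of Wnt binding, rose from 190 ± 29.5 to 542 ± 33.8 normalized counts (log2FC 1.51, adjusted p = 2e-06, edgeR), and its call was kept in 8 of the 8 fits without 1 library. Of the secreted Frizzled-related proteins, which carry a Frizzled-like cysteine-rich domain, *Sfrp1* and *Sfrp2* were also called higher, while *Sfrp4* (log2FC 0.58) and *Frzb* (-0.24) were not called. *Sfrp2* stood at 5964.6 ± 1993.5 in Control and 12397.9 ± 468 in CKO samples and *Sfrp1* at 1345.7 ± 186 and 2053.1 ± 223. *Notum*, which removes the lipid of Wnt proteins, was called lower (109 ± 50 to 18.6 ± 6.08), as was *Dkk3* (19022.1 ± 874 to 13446.2 ± 1394.5). These calls were weak, since the call was kept in 3 of the 8 fits without 1 library for *Sfrp1* (without Control replicates 1 or 3 or CKO replicate 1), in 2 for *Notum* (without Control replicate 3 or CKO replicate 3) and *Dkk3* (without Control replicate 3 or CKO replicate 1), and in 1 for *Sfrp2* (without Control replicate 1).

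Downstream of the receptors, 3 of 16 genes of Dishevelled and the β-catenin arm were called by edgeR, all higher (median log2FC 0.03). DESeq2 called 4 higher and 1 lower, and at an unadjusted p below 0.05 in edgeR 6 were higher and 4 lower. The 4 were *Tcf7* (log2FC -1.45), *Lef1* (-0.68), *Tcf7l1* (-0.42) and *Dvl2* (-0.17), the first 3 of them DNA-binding partners of β-catenin, named after their values were seen. *Dvl3*, a Dishevelled protein, rose from 1356.7 ± 34.9 to 1805.9 ± 27.9 normalized counts (log2FC 0.41, adjusted p = 4.9e-05, edgeR), in every fit without 1 library as well. *Gsk3b* and *Csnk1e*, kinases of the arm, had a log2FC of 0.41 and 0.32 and kept their calls in 2 (without Control replicates 3 or 4) and 1 (without Control replicate 3) of those 8 fits. Of 6 feedback targets of the arm, *Ccnd1*, a cyclin of the G1 phase that many other signals also drive and that is on the progenitor list too, was the 1 called, and it was lower (45274.2 ± 3303.5 to 20134.6 ± 2380.0). *Nkd1*, an inhibitor induced by the arm, stood at 1256.0 and 1385.5 (adjusted p = 0.31, edgeR). *Axin2*, the usual readout of β-catenin signalling and chosen here after its values were seen, stood at 182 and 194 (adjusted p = 0.52, edgeR). At an unadjusted p below 0.05 in edgeR 0 of the 6 were higher and 2 lower, *Ccnd1* and *Nkd2*, and DESeq2 called 1 lower. *Nkd2*, also named after its values were seen, stood at 155 and 82.7 (log2FC -0.91, adjusted p = 0.046, edgeR, not called). Its Control replicate 3, at 50.2, lay below every CKO sample.

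Of 13 planar cell polarity genes 4 were called by edgeR, all higher (median log2FC 0.08). DESeq2 called 6 higher and 2 lower, and at an unadjusted p below 0.05 in edgeR 6 were higher and 3 lower. Those 3, named after their values were seen, were *Celsr1* (log2FC -0.60), *Rhoa* (-0.23) and *Intu* (-0.25). *Ankrd6*, also called Diversin, rose from 284 ± 18.8 to 535 ± 40.1 normalized counts (log2FC 0.92, adjusted p = 1.4e-05, edgeR) and kept its call in 8 of the 8 fits without 1 library. *Celsr3*, the cadherin that works with *Fzd3* in axon tracts, stood at 2752.9 ± 157 and 4502.2 ± 791, and kept its call in 3 of the 8 (lost without any 1 of Control replicates 1 to 4 or CKO replicate 4). *Vangl2* (log2FC 0.30) kept it in 2, without Control replicate 3 or CKO replicate 1, and *Prickle2* (0.51) in 1, without Control replicate 4. On the exons of *Wnt7b*, *Adgra2*, *Notum*, *Sfrp2*, *Csnk1e*, *Ccnd1*, *Axin2*, *Dvl2*, *Lef1*, *Tcf7l1*, *Rhoa* and *Wnt5a*, among the pathway genes named, the annotation places another gene on the opposite strand, so their reads are not fully separated from that gene's.

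**Figure D5:**
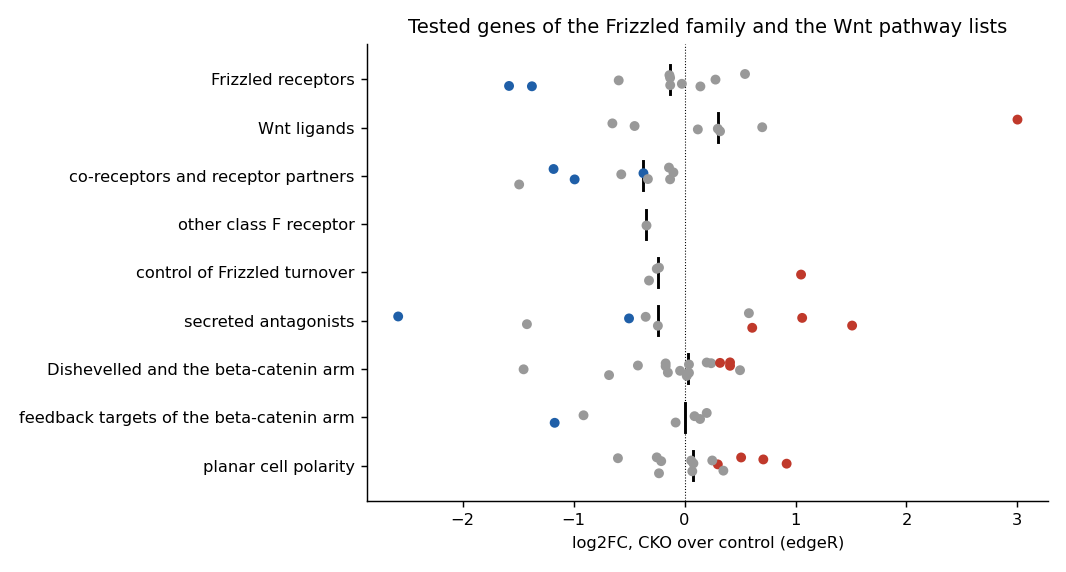
log2FC (x axis, CKO over Control, edgeR) of each tested gene in the Frizzled family and in the lists of Wnt pathway genes; red marks genes called higher, blue genes called lower and grey genes not called, and bars are medians. *Wnt7b* lies farthest to the right at 3.00, and the receptor partners have their median at -0.37.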

How the data were processed

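The authors sequenced unstranded poly(A) libraries from 1 end in 50 cycles, aligned to mm10 with TopHat2, counted reads per gene with HTSeq and deposited those counts without normalization. Cufflinks is also listed in the submitters' processing notes. The sources used here do not give versions, strand setting or annotation release. The report gives the range of total counts per sample.

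The Frizzled family and the gene lists were chosen with earlier results of these data known; the members of the family follow from their symbols. Samples were grouped by the labels, no sample was left out and 0 columns belonged to no sample. Any 2 samples of a genotype differed by a chi-square of 3.54 to 20.8 per gene, above sampling noise. Genes that reached 20 normalized counts in 3 or more samples were tested with the quasi-likelihood test of edgeR 4.0.16 in R 4.3.3 (TMM scaling, genotype as the only term), after the study's filter and cutoff of 0.001, and the fit was tested on simulated data. Normalized counts used median-of-ratios factors. Intervals and p-values take in the spread between embryos and the noise of counting reads together, and they treat littermates as independent. Ratios, with 0.5 added to each normalized count, were tested exactly in SciPy 1.17.1. Alternatives were DESeq2 1.42.0, limma voom 3.58.1, other scalings and filters, and each library left out. Further alternatives added 1 surrogate variable (sva 3.50.0), the replicate number or embryo sex as a term. The labels do not give sex, which was inferred from *Xist* reads. Coordinates, lengths and overlaps came from GENCODE M21 (GRCm38). No 50-base window was shared between Frizzled genes. The text names all 10 Frizzled genes, called list members (at most 5 per list by smallest p, or the 2 most abundant where fewer than 2 were called), and the 3 genes nearest in pattern to each called Frizzled gene. Litter and day could not enter a test.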

Additional observations from a re-analysis of the deposited data

Results flagged for a closer look

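A sample far from the other samples of its genotype was looked for in 38 groups of 4 values, and 3 stood apart, where chance gives about 1 in 20. *Fzd3* had 620 normalized counts in Control replicate 3 while the rest of that genotype had 1270.5 to 1331.6. The log2 ratio of *Fzd3* over *Fzd6* was 4.07 in Control replicate 4 and 3.30 to 3.40 in the remaining Control samples. The same ratio was 5.28 in CKO replicate 1 and 4.43 to 4.52 in the remaining CKO samples.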

How the results depend on the processing

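*Fzd5* was called lower in all 18 alternatives (log2FC -1.43 to -1.34). The number of Frizzled genes called lower, 2, was 1 with 1 surrogate variable or with embryo sex as a term, and 1 in each fit without 1 library, each time through loss of *Fzd10* (adjusted p 0.0012, 0.0015 and 0.0011 to 0.0036). DESeq2 (2.8e-05) and limma voom (0.00093) kept its call. The number called higher, 0, was 1 at a cutoff of 0.05 and also when low counts were not filtered, and 0 to 1 without 1 library, in each case *Fzd3*; over all alternatives its log2FC ran from 0.35 to 0.67 and its adjusted p from 0.00026 to 0.079. *Fzd2* (log2FC -0.02) ran from -0.06 to 0.03 without 1 library and *Fzd4* over *Fzd9* (0.04) from -0.30 to 0.21; the sign of the first changed without Control replicate 1 (0.03) or CKO replicate 1 (0.01), that of the second without Control replicate 3 (-0.30) or CKO replicate 4 (-0.16). For the other 7 Frizzled genes no alternative changed the sign or the call. With overlapped bases left out of its length, an alternative chosen after seeing the data, *Fzd5* held 55.2% of the summed level in Control and 30.4% in CKO retinas. With a replicate block only *Fzd5* was called lower, since *Fzd10* lost its call (adjusted p = 0.0039, edgeR). In that fit 676 of all genes were called, against 1196 in the main fit. Deviations of same-numbered samples had correlations of 0.142, -0.154, 0.063 and -0.116, and those of other pairs ran from -0.260 to 0.248. These values cannot decide whether same-numbered samples shared a litter or day, which the labels do not give. All genes called numbered 2055 with no filter, 4619 at 0.05, 2390 by DESeq2, 713, 759 and 748 without Control replicates 1, 2 and 4, and 736 and 685 without CKO replicates 2 and 4. *Fzd10* had the fewest reads of the family; read number and spread between embryos were not separated for any member.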
